A study of Rattus norvegicus with 3 samples.

Results

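Among the 17089 rows of an RNA-seq table from the rat pineal gland, 157 carry no gene name and an identifier that starts with PFAR. These 157 unnamed transcribed regions are described here, and they were taken by that identifier alone, without use of their values. The table holds 16932 rows for RefSeq transcripts beside them. Each region has a chromosome, a start and an end on the rn4 build of the rat genome, and a level in each of 3 libraries of poly(A) RNA. The RNA came from adult Sprague-Dawley rats on a daily cycle with 14 h of light followed by 10 h of dark. For the pineal libraries the glands were collected at midday, zeitgeber time 7 (hours after lights on), or at midnight, zeitgeber time 19. The mixed library pooled equal amounts of RNA from 15 other tissues, also at zeitgeber time 7: 7 parts of the central nervous system including the retina, the pituitary, and 7 peripheral organs from the adrenal gland, heart and kidney to the small intestine, liver, lung and skeletal muscle. Every group is 1 library, so no difference below has a replicate check, and no p-value is given. The number of animals behind a library and the way the regions were picked were not stated in the labels. In whole tissue, fewer cells of a type and less RNA per cell cannot be told apart.

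The pineal gland makes melatonin by night, when noradrenaline from sympathetic nerves raises cyclic AMP in its cells and switches on genes such as Aanat, whose product acetylates serotonin on the way to melatonin. Genomes also give rise to spliced and polyadenylated RNA outside annotated genes. Some of it consists of long noncoding RNA, some of extended ends of known genes, and some of primary transcripts from which microRNAs are cut. A microRNA acts through its seed, the bases 2 to 8 of the mature strand, which pair with target messengers.

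No genome of the rn4 build was at hand, so the bases of the regions themselves are not shown. What can be shown are the mature microRNAs whose rows lie inside 6 of the regions. The 6 regions hold 56 microRNA rows, and all 56 matched a RefSeq entry by gene ID, with 96 mature sequences and 89 different seeds (RefSeq, build GRCr8). The sequences are written 5′ to 3′ with the seed in capitals, and were picked to show which regulators the transcribed regions cover. PFAR115 covers Mir212 and Mir132, a pair of microRNAs known as targets of the cyclic AMP response factor CREB in neurons, whose 3p strands share a seed:
rno-miR-132-3p: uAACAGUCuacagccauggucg
rno-miR-212-3p: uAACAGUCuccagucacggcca
rno-miR-132-5p: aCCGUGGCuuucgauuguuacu
rno-miR-212-5p: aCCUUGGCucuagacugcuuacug

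PFAR184 covers Mir183, known from photoreceptors and hair cells. The row of Mir96 lies 3 bp outside its edge and that of Mir182 at 3643 bp, and their sequences are given because the 3 microRNAs are known as a cluster:
rno-miR-183-5p: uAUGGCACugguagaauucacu
rno-miR-96-5p: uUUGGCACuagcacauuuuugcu
rno-miR-182: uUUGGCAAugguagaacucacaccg

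PFAR175 covers Mir129-2, and PFAR215 covers Mir125b-1, of which the table lists the 3p strand:
rno-miR-129-5p: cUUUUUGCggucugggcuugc
rno-miR-129-2-3p: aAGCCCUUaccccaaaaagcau
rno-miR-125b-1-3p: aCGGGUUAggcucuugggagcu

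PFAR203 and PFAR204 cover 11 and 39 microRNA rows on chromosome 6, members of the imprinted cluster between Dlk1 and Dio3, which in mammals is transcribed from the maternal copy. The examples are well-studied members, followed by the strands of PFAR204 that share the seed GGUUGUC or AUACAAG:
rno-miR-127-3p: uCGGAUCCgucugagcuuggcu
rno-miR-433-3p: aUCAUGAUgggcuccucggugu
rno-miR-134-5p: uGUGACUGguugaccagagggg
rno-miR-154-5p: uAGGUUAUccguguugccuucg
rno-miR-410-5p: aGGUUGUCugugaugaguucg
rno-miR-494-5p: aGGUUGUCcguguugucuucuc
rno-miR-496-5p: aGGUUGUCcaugguguguuc
rno-miR-381-3p: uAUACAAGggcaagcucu
rno-miR-539-3p: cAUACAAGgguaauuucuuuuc

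Levels are FPKM, numbers of sequenced fragments scaled to transcript length in kilobases and to the size of the library, as the authors deposited them. In the regions these values are whole multiples of a fixed step divided by the span less 82.7 bases by day, 68.2 by night and 83.7 in the mixed tissues, which gives back the number of fragments behind each value. The bases taken off matter most in the shortest regions. The step, fitted on the regions alone, corresponds to about 11901365 fragments by day, 7909848 by night and 12003488 for the mixed tissues. It also shows that the FPKM of a region is an average over its whole genomic span, with no introns taken out, so it is not on the same footing as the FPKM of a spliced RefSeq transcript. All intervals below are 95% counting intervals from the fragments of the regions, and cover counting error only. Where a library held 0 fragments, "at least" sets the other library against a floor of 3 fragments, and the lower end of the interval, which is smaller, is given beside it. Levels of 7 pinealocyte markers summed to 5759 FPKM by day, 7152 by night and 53.9 in the mixed tissues. Markers of other cells were lower in the gland: 3 astrocyte genes summed to 24.2, 13.8 and 321 FPKM and 3 fibroblast genes to 152, 107 and 263. The 3 microglial genes summed to 27.2, 22.6 and 39.2 FPKM and the 3 endothelial genes to 11.8, 10.52 and 62.1. The endothelial marker Cldn5 was listed at 0 in all 3 libraries while Pecam1 and Cdh5 were not. The part of these cells in the results was not tested.

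The regions held 149256 fragments by day, 147120 by night and 20125 in the mixed tissues. These are 1.25%, 1.86% and 0.168% of the library sizes that the step gives. The median level of the regions was 1.09 FPKM by day, 2.51 by night and 0.103 in the mixed tissues. At least 1 FPKM was reached by 83 regions by day, by 104 by night and by 30 in the mixed tissues. In shares, these are 52.9%, 66.2% and 19.1% of the regions, against 57.2%, 55.8% and 70.3% of RefSeq rows. The share of regions was thus below that of RefSeq rows by day and in the mixed tissues and above it by night. Since the FPKM of a region and of a RefSeq row are not on the same footing, these shares do not rank their levels. No region was at 1 FPKM or more in the mixed tissues and below it in both pineal libraries.

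By night against day, the log2 ratio of FPKM + 1 was compared for the 124 regions with at least 1 FPKM in either library. It was at least 1 (2-fold higher by night) in 54 regions, at most -1 in 18, and between in 52. The median was 0.65, with quartiles of -0.80 and 1.74. Of 9913 RefSeq rows compared in the same way, 3.97% were 2-fold higher and 2.42% 2-fold lower, with a median of -0.11. The 39 noncoding RefSeq rows (identifiers that start with NR) that could be compared had 10 higher and 9 lower. Since it is not known whether day and night levels were used to pick the regions, nothing is read from the size of the difference to RefSeq rows. For each of the 54 and of the 18 regions the counting interval of the ratio excluded 1.

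**Figure D1:**
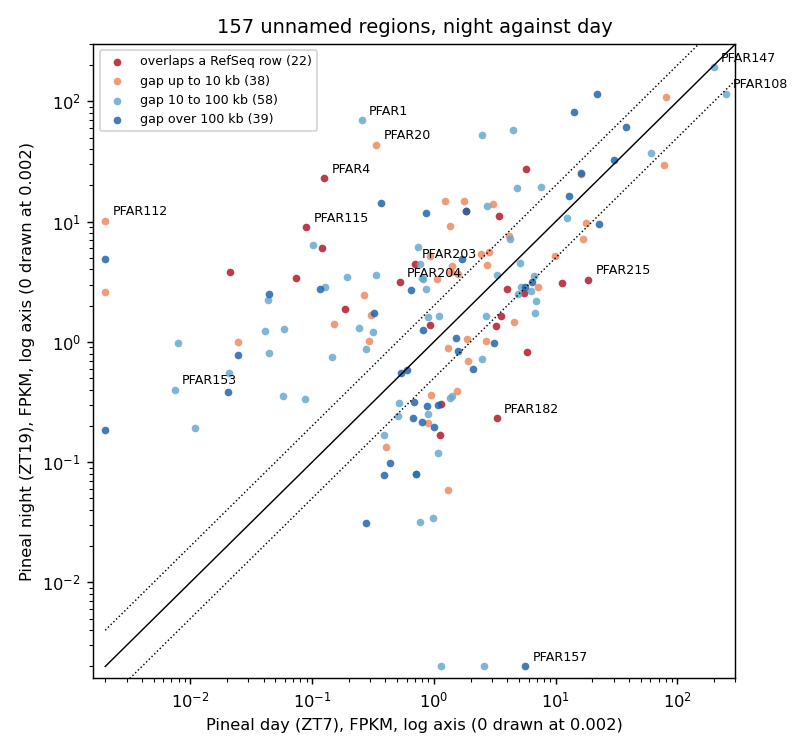
Level of each of the 157 regions by night (vertical) against day (horizontal), in FPKM on log axes, with 0 drawn at 0.002 and points coloured by the gap to the nearest RefSeq row. The solid line marks equal levels and the dotted lines 2-fold; PFAR1, PFAR20 and PFAR4 lie far above the lines, while PFAR147 and PFAR108 have the highest levels of all.

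PFAR1 (chr12:5279390-5288650) had the highest ratio. Its level was 0.256 FPKM by day, 69.8 by night and 0.163 in the mixed tissues, from 28, 5074 and 18 fragments. The night level was 272-fold that by day (interval 188 to 410), so by day this region was close to the mixed tissues and by night among the 10 highest regions. The nearest RefSeq row is Rxfp2, a receptor for insulin-like peptide 3, at a gap of 38.3 kb, with 0.0436 FPKM by day and 1.69 by night. On the other side, at 143 kb, Fry was at 9.74 and 21.6 FPKM (log2 ratio 1.07). PFAR123, at 425 bp from Rxfp2, was at 0.150, 1.41 and 0.0929 FPKM and thus also higher by night.

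PFAR20 (chr8:115797800-115830300) ends 171 bp from the row of Dclk3, a doublecortin-like kinase. Its level was 0.337 FPKM by day, 43.6 by night and 0.0103 in the mixed tissues, from 130, 11183 and 4 fragments. Night exceeded day 129-fold (109 to 155). Dclk3 itself was at 2.56, 133 and 2.86 FPKM, so region and gene were both high in the night library alone. Their log2 ratios were 5.06 and 5.24.

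PFAR4 (chr15:106554430-106567170) lies inside the span of Slc15a1, a transporter of small peptides. It was at 0.126 FPKM by day, 23.0 by night and 0.0940 in the mixed tissues (19, 2310 and 14 fragments), a 183-fold ratio of night to day (117 to 304). The table has a pair of Slc15a1 rows. The long row, which spans the region, was at 0.0642, 0.987 and 4.19 FPKM, and the short row, which ends 1893 bp before the region starts, at 0.156, 286 and 0.000616 FPKM. The region followed the short row, low by day and in the mixed tissues and high by night. PFAR149, a region of 901 bp at 109 kb from the gene, had 0, 32 and 1 fragments, so its night level of 4.86 FPKM was at least 15.8-fold that by day (lower end 12.1).

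PFAR115 (chr10:62479500-62482400), the region over Mir132 and Mir212, was at 0.0894 FPKM by day, 8.97 by night and 1.80 in the mixed tissues, from 3, 201 and 61 fragments. The night to day ratio was 100 (33.8 to 490), and by day the region was below the mixed tissues. Its flanking genes Hic1 and Ovca2, at 2.99 kb and 678 bp, had log2 ratios of 0.03 and 0.39, so the difference was not shared by the rows on either side.

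PFAR12 (chr17:16296600-16393000) spans 96.4 kb and holds the whole row of Cplx2, a complexin of synaptic vesicle release. It was at 0.120, 5.98 and 2.88 FPKM, and Cplx2 at 0.834, 3.58 and 48.0. Fragments of the gene and of the region around it cannot be told apart here, and the order of the libraries differs between them. PFAR155, which starts 49.2 kb beyond PFAR12 and overlaps no row, was at 0.101, 6.33 and 0 FPKM (4, 167 and 0 fragments), 62.5-fold higher by night (24.0 to 232). Hrh2, a histamine receptor and its nearest row at 52.4 kb, was at 0.365, 0.676 and 0.626 FPKM.

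PFAR60 (721 bp) was at 2.50 FPKM by day, 52.9 by night and 2.35 in the mixed tissues, from 19, 273 and 18 fragments, and was 21.1-fold higher by night (13.3 to 35.7). In 5 further members of the 15, as in some of those above, the nearest row was within 2-fold between day and night. PFAR81 (1.9 kb), 223 kb from Rragc, a GTPase of nutrient signalling, had 8, 207 and 0 fragments, a 38.6-fold ratio (19.2 to 90.7), and Rragc was at 27.5 and 28.1 FPKM. PFAR178 (251 bp) was at 4.49, 58.1 and 1.49 FPKM, and rests on 9, 84 and 3 fragments. PFAR209, with 35, 323 and 0 fragments, lies 333 kb from Nuak1, and PFAR208, with 11, 62 and 0 fragments, 4.08 kb from the polymerase subunit gene Polr2e. PFAR56, 501 bp at 254 kb from Clvs1, was at 14.1 FPKM by day, 81.8 by night and 0.200 in the mixed tissues. The log2 ratios of Asip, Nuak1, Polr2e and Clvs1 were 0.06, -0.19, -0.08 and 0.11.

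The genes nearest to PFAR112 and PFAR169 were also at least 2-fold higher by night. PFAR112 had 0, 43 and 0 fragments (10.2 FPKM by night, at least 21.0-fold above day, lower end 16.3), and Tnk1, a tyrosine kinase gene 7.65 kb away, was at 3.80 and 18.3 FPKM. PFAR169 was at 1.24, 14.8 and 1.74 FPKM, and Brd3, a chromatin reader 3.26 kb away, at 10.9 and 27.0. Of the 15 regions, 6 had a nearest row at least 2-fold higher by night too, 6 are under 1 kb long, 3 overlap a row, and 8 had at most 3 fragments in the mixed tissues.

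**Figure D2:**
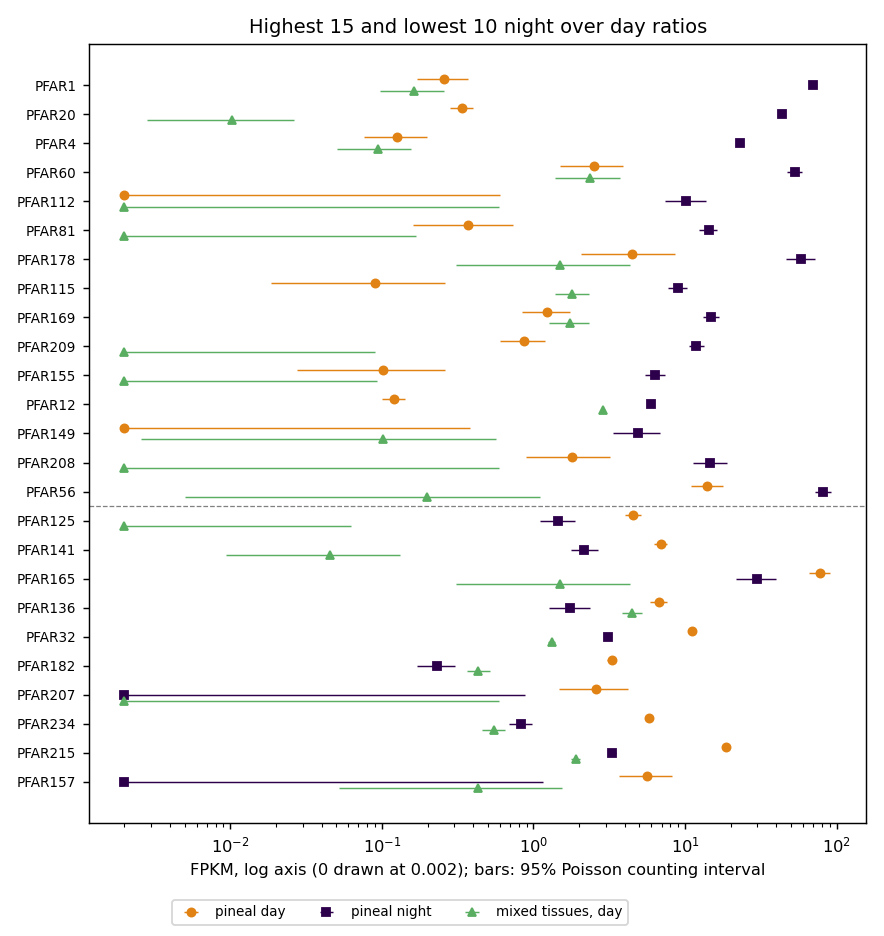
FPKM (log axis, 0 drawn at 0.002) of the 15 regions with the highest and the 10 with the lowest night to day ratio, in pineal day (circles), pineal night (squares) and mixed tissues (triangles), with bars for 95% Poisson counting intervals. Above the dashed line the night value is on the right in every row and below it the day value is.

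At the other end, the region with the lowest ratio was PFAR157 (471 bp), with 26 fragments by day, 0 by night and 2 in the mixed tissues. Its level of 5.63 FPKM by day was at least 5.98-fold that by night (lower end 4.52). PFAR215 (chr8:44565900-44604200), over Mir125b-1 and the noncoding transcript Vof16, rests on far more fragments: 8433, 997 and 874, or 18.5, 3.30 and 1.90 FPKM. It was 5.62-fold lower by night (5.27 to 6.01). Vof16, whose row takes up 5.48% of the region, was at 55.7, 10.9 and 3.65 FPKM, in the same order.

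PFAR234 holds P2ry4, a nucleotide receptor, and had the same order as the gene: 5.77, 0.821 and 0.545 FPKM, against 12.2, 2.29 and 0.848 for P2ry4. PFAR182, which holds Gng11, a G protein gamma subunit, was at 3.27, 0.231 and 0.434 FPKM, 14.3-fold lower by night (10.7 to 19.5). Gng11 was at 10.6, 5.39 and 11.6 FPKM, so the gene differed less between day and night than the region and was no higher in the gland than in the mixed tissues. PFAR32 overlaps part of Pde6b, the rod phosphodiesterase beta subunit, and had the most fragments of any region by day: 14682, against 2687 by night and 1744 in the mixed tissues. Its level was 11.2, 3.08 and 1.32 FPKM, while Pde6b stood at 2.75, 2.18 and 55.7.

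The other 5 of the 10 lowest overlap no gene. PFAR207 had 16 fragments by day and 0 in the other libraries. PFAR165 (251 bp), 6.08 kb from Rrh, the peropsin gene, was at 77.4, 29.7 and 1.49 FPKM, and Rrh at 0.340, 0 and 3.004, so the region was abundant where the gene was close to 0. PFAR136, PFAR141 and PFAR125 were 3.85-fold (2.76 to 5.48), 3.18-fold (2.54 to 4.01) and 3.12-fold (2.34 to 4.23) lower by night. PFAR141 and PFAR125 had 3 and 0 fragments in the mixed tissues, but PFAR136 was at 6.74, 1.75 and 4.47 FPKM and thus not low there. Among the 10, nearest rows at least 2-fold lower by night numbered 2, Vof16 and P2ry4.

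The pseudocount of 1 hides ratios of regions with low FPKM, although long regions can have a low FPKM and many fragments. The 33 regions below 1 FPKM in both pineal libraries have a median span of 34.9 kb, and all 33 had at least 20 fragments in the pair of pineal libraries. Without a pseudocount, a rule added after the data were seen, 13 of them were at least 2-fold higher by night, 17 at least 2-fold lower, and 3 between. Over the 155 regions with at least 20 fragments, 72 were higher, 50 lower and 33 between, and the counting interval lay above 1 in 86, below 1 in 66 and across 1 in 3. In the 124 regions of at least 1 FPKM, the same rule gave 60 higher and 34 lower. Of RefSeq rows at that level, 5.36% were 2-fold higher and 6.05% lower without a pseudocount.

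Among these low regions, PFAR153 lies 73.1 kb from Irs2, an adaptor of insulin signalling. It had 3, 107 and 4 fragments over 34.0 kb, so its FPKM went from 0.00743 by day to 0.399 by night, a ratio of 53.6 (17.9 to 264), and Irs2 was at 2.30 and 130 FPKM. PFAR166, 39.4 kb from the kinase gene Sik1, had 16, 286 and 7 fragments, 26.9-fold more by night (16.3 to 47.7), and Sik1 was at 1.72 and 97.8 FPKM. Both regions were thus higher by night, like the gene next to them. PFAR202 had 1, 69 and 188 fragments and is 1 of 4 regions with a mixed-tissue level above both pineal levels.

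On the lower side, PFAR181 had 86, 2 and 8 fragments, 28.6-fold fewer per depth by night (7.69 to 240), and PFAR190, 13.8 kb from Rgs20, a regulator of G protein signalling, had 73, 2 and 14 (24.3-fold, 6.49 to 204). Rgs20 was also lower by night, at 28.5 and 6.14 FPKM. PFAR227, 102 kb long and 437 kb from the nearest row, had 333, 25 and 5 fragments (8.85-fold lower, 5.89 to 13.9).

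Of 29 genes with a known day and night difference in the gland that were found in the table, a list chosen with earlier results of these data known, 25 were 2-fold higher and 4 lower. Of the 29, 5 were the nearest row of a region: Slc15a1, Dclk3, Irs2, Sik1 and Pde10a. Pde10a, a phosphodiesterase of cyclic nucleotides, was at 3.25, 47.6 and 4.16 FPKM. It overlaps PFAR19 by 76 bp, at the edge of the region with the lower coordinates. PFAR19 runs for 269 kb and was at 0.0744, 3.37 and 0.162 FPKM (238, 7161 and 522 fragments), 45.3-fold higher by night (39.8 to 51.7). The regions nearest to these 5 genes were higher by night in FPKM, as the genes were. Of 18 known noncoding RNA genes looked for, 5 were in the table and 4 could be compared. None of the 4 was 2-fold apart, and none of the 5 was the nearest row of a region. The others, among them Meg3, Rian and Mirg, had no row, so whether they lie next to a region could not be seen.

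Grouped by their distance to the nearest RefSeq row, 22 regions overlap a row, 38 lie within 10 kb, 58 at 10 to 100 kb, and 39 beyond 100 kb. The regions higher and lower by night were 11 and 4 of 22 compared in the overlapping class, 14 and 5 of 34 within 10 kb, 18 and 6 of 42 at 10 to 100 kb, and 11 and 3 of 26 beyond. The median log2 ratios were 0.79, 0.77, 0.56 and 0.47, so on this scale regions higher by night outnumbered those lower in each class. Without a pseudocount, over regions with at least 20 fragments, higher and lower were 11 and 9, 18 and 11, 29 and 15, and 14 and 15, so beyond 100 kb they did not. Median levels by night were 3.11, 3.74, 1.69 and 1.07 FPKM, and in the mixed tissues 0.470, 0.169, 0.0323 and 0.0290. In FPKM, the median in the mixed tissues was thus lower in regions farther from genes. The classes at 10 to 100 kb and beyond were close, and their median fragments there were 8.5 and 10. In the overlapping class, fragments of a gene can be counted for the region too.

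Of the 54 regions higher by night, 18 had a nearest row that was also at least 2-fold higher, 0 had a lower one, and 36 a row within 2-fold. Of the 18 lower, 3 had a lower row, 1 a higher row and 14 a row within 2-fold. Among the 9913 RefSeq rows with at least 1 FPKM in either pineal library, 3.97% were 2-fold higher by night and 2.42% lower. The nearest row was under 1 FPKM in both pineal libraries for 13 of the 54 and 3 of the 18, and at 0 in both for 6 of the 54, and such a row cannot reach 2-fold on the FPKM + 1 scale. A microRNA row was nearest for 4 of the 54, and 1 of these, Mir540, is among the 18. Where several rows overlapped a region, the one with the highest pineal FPKM was taken as nearest. For PFAR203 that choice took Mir540 (log2 ratio 1.84) from 11 microRNA rows, which include Mir433 at -1.27. The pair of PFAR203 and Mir540 also enters the r of overlapping regions. With the nearest row taken from those of at least 1 FPKM in a pineal library, both were higher in 21 and both lower in 3. Across the 101 regions with at least 1 FPKM in region and row alike, Pearson's r of the log2 ratios was 0.55 and Spearman's rho 0.60. Within classes r was 0.78 (16 overlapping), 0.81 (32 within 10 kb), 0.32 (34 at 10 to 100 kb) and 0.37 (19 beyond), with rho of 0.78, 0.77, 0.36 and 0.20. For the 8 within 1 kb of a row without overlap, r was 0.93 and rho 0.93. These are descriptions across regions of the same 3 libraries; in overlapping regions, fragments can be counted for both, and some regions share a nearest row.

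**Figure D3:**
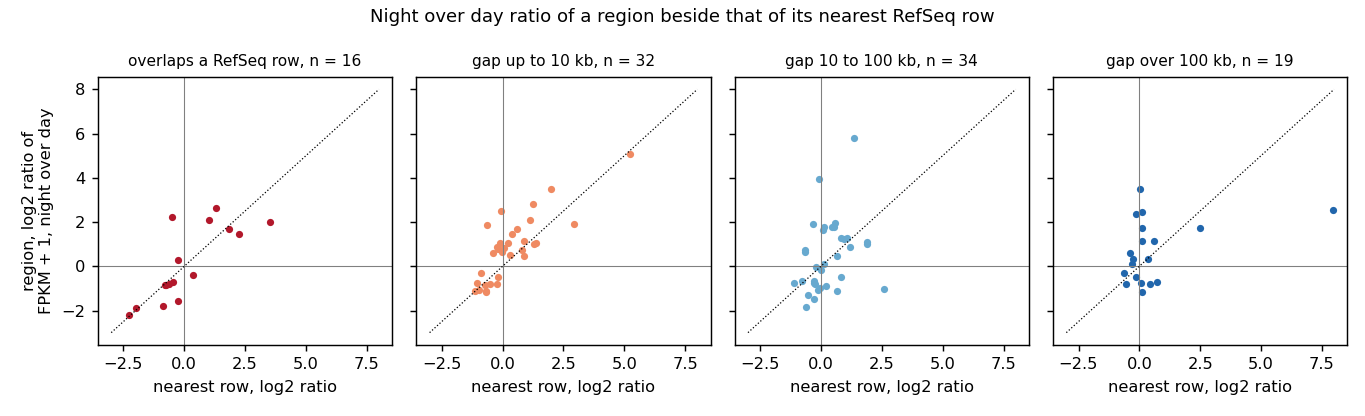
Log2 ratio of FPKM + 1, night over day, of each region (vertical) and of its nearest RefSeq row (horizontal), in 4 panels by the gap between them, for pairs with at least 1 FPKM in either pineal library; the dotted line marks equal ratios. In the panels up to 10 kb the ratios of region and row rise together (r of 0.78 and 0.81). Some points there lie far from the line, such as PFAR208 at 2.50 beside Polr2e at -0.08. In the panels beyond, points scatter around a neighbour ratio near 0 (r of 0.32 and 0.37).

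Some regions that overlap a gene differed from it in at least 1 library. PFAR222 overlaps Mobp, a myelin protein gene, over 74.7% of its length. The region was at 0.0210, 3.83 and 2.05 FPKM (8, 909 and 739 fragments), whereas Mobp was at 0.123 by day, listed at 0 by night, and at 116 in the mixed tissues. The row of Mobp thus did not share the night to day ratio of the region, about 171-fold (86.4 to 397). The day value of PFAR222 did not come out as a whole number of fragments. The 8 fragments, the ratio and its interval are therefore approximate. PFAR110 overlaps 526 bp of the row of Ublcp1, a phosphatase gene, at the edge of that row with the higher coordinates. The region was at 1.82, 12.3 and 0.315 FPKM, while Ublcp1 was at 33.9, 23.7 and 24.2. PFAR18 holds Myct1 and had 27.4 FPKM by night over 53 kb, the most fragments of any region by night (11462), with 5.72 by day and 0.170 in the mixed tissues. Myct1 was at 0.799, 2.61 and 4.59 FPKM, also higher by night than by day (log2 ratio 1.01), but highest in the mixed tissues, where the region was lowest.

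Other overlapping regions are given beside their genes. PFAR210 holds Galnt4, a glycosyltransferase gene, and was at 3.42, 11.04 and 1.43 FPKM, beside 3.37, 19.99 and 2.67 for the gene. PFAR233 holds Gata1, a blood cell transcription factor, and was at 1.13, 0.169 and 0.0454 FPKM, beside 1.54, 0.456 and 0.0992. PFAR109 overlaps Grin2a, a glutamate receptor subunit, and was at 3.57, 1.64 and 0.234 FPKM, beside 2.21, 1.05 and 2.57; region and gene were alike in the gland but not in the mixed tissues. PFAR130 and Kdm2b were lower by night in the same way (3.24, 1.35 and 1.24 against 4.62, 2.33 and 3.38 FPKM). Their overlap is 467 bp, or 2.78% of the region. PFAR104 (Tarsl2), PFAR201 (Cpg1) and PFAR183 (Bet1) had log2 ratios of FPKM + 1 of 0.31, -0.41 and -0.71, within 2-fold on that scale, beside -0.25, 0.35 and -0.46 for the genes. The signs of region and gene thus differed for PFAR104 and PFAR201. PFAR104 meets Tarsl2 at an edge only, over 123 bp or 0.0436% of the region.

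The other regions with microRNA rows inside differed among themselves. PFAR203 was at 0.696, 4.45 and 0.710 FPKM (984, 4180 and 1012 fragments), and PFAR204, 90.9 kb from it, at 0.526, 3.15 and 0.507 (446, 1775 and 433). The night to day ratios of 6.39 (5.96 to 6.86) and 5.99 (5.39 to 6.66) were close, and by day both regions were level with the mixed tissues, with ratios of 0.981 (0.897 to 1.07) and 1.04 (0.908 to 1.19). PFAR175, over Mir129-2, was at 0.185, 1.86 and 0.233 FPKM, 10.1-fold higher by night (7.65 to 13.4). PFAR184, beside the sensory cluster of Mir183, went the other way: 5.49, 2.56 and 3.06 FPKM, 2.15-fold lower by night (1.83 to 2.53).

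The microRNA rows themselves do not show this. Of the 56 rows inside regions, 54 were listed at 0 in all 3 libraries, as were 352 of the 382 microRNA rows of the whole table. The exceptions were Mir433, listed at 1.41 FPKM by day and 0 elsewhere, and Mir540, at 2.57 by night and 0 elsewhere. Libraries of poly(A) RNA that were fragmented and size-selected hold few RNAs as short as mature microRNAs. The levels above are thus those of longer RNA counted over the whole span of a region, and the mature forms were not measured. Whether that RNA runs over the microRNA rows, or on their strand, was not tested.

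On the FPKM + 1 scale, 30 of the 87 regions that could be compared between the pineal day library and the mixed tissues exceeded the latter 4-fold. Those 4-fold below numbered 0, and the median log2 ratio was 1.52. By night 50 of 105 were 4-fold higher and 0 lower, with a median of 1.91. Of RefSeq rows, 2.16% were 4-fold higher and 13.5% lower by day, and 2.82% and 14.7% by night. Without a pseudocount, 64 of the 87 regions were 4-fold higher and 4 lower by day, and 87 of the 105 higher and 0 lower by night. RefSeq rows gave 3.37% and 23.1% by day, and 3.83% and 25.1% by night. If the regions were picked in the pineal gland, a higher level there may follow from that choice, so the shares are descriptions only.

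**Figure D4:**
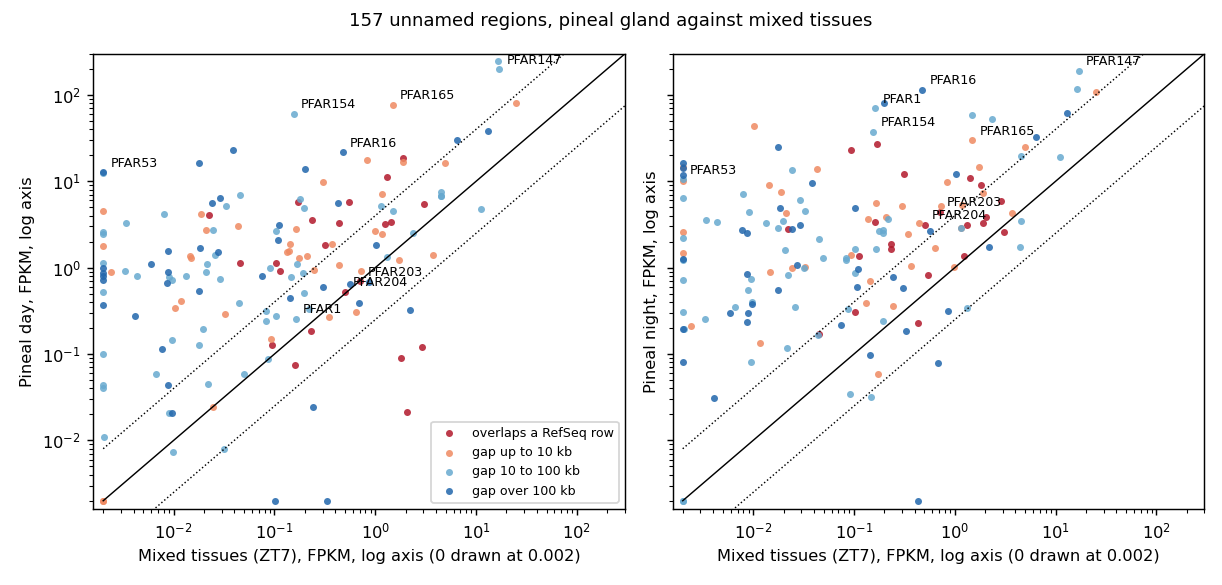
FPKM of the 157 regions in the pineal gland (left by day, right by night) against the mixed tissues, on log axes with 0 drawn at 0.002; the solid line marks equal levels and the dotted lines 4-fold, and colours give the gap to the nearest RefSeq row. Most points lie above the solid line, 17 regions sit at 0 in the mixed tissues, and PFAR1 moves from near the line by day to far above it by night.

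In FPKM, 124 regions were above the mixed tissues both by day and by night, and 4 (PFAR188, PFAR202, PFAR213 and PFAR218) were below at both times. Another 15 were below by day and above by night, and 10 the reverse. In the mixed tissues 17 regions were at 0 and 41 had at most 3 fragments, and 27 of the 41 had over 100 fragments in a pineal library. PFAR53 (chr4:32596100-32635000) had 5780 fragments by day, 3267 by night and 0 in the mixed tissues. Its level of 12.5 FPKM by day was at least 1943-fold that of the mixed tissues (lower end 1580), and that of 10.6 by night at least 1652-fold (lower end 1343). Tac1, the precursor gene of substance P, is nearest at 14.7 kb, and its rows differ: 1 was at 0, 0 and 5.98 FPKM, and another at 3.99e-05, 0.938 and 1.47.

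PFAR35 (chr14:34786100-34797100), 109 kb from the receptor kinase gene Kit, also had 0 fragments in the mixed tissues, with 1676 by day and 1425 by night (12.9 and 16.5 FPKM, at least 563-fold and 720-fold higher, with lower ends of 458 and 585). PFAR37 was at 16.2 and 25.3 FPKM in the gland and had 1 fragment in the mixed tissues, a ratio by day of 920 with an interval of 165 to 36363. PFAR47 (6446, 1798 and 11 fragments) was 591-fold above the mixed tissues by day (330 to 1185) and PFAR193 (1938, 1393 and 2 fragments) 977-fold (270 to 8076). Such ratios rest on the few fragments in the mixed library, and their intervals are wide.

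PFAR16 (chrX:34340700-34352700), 149 kb from Alg13, combined a high level with differences in both comparisons. It was at 21.7 FPKM by day, 116 by night and 0.475 in the mixed tissues, from 3075, 10908 and 68 fragments, 5.33-fold higher by night (5.12 to 5.55) and 45.6-fold above the mixed tissues by day (35.9 to 58.9). PFAR154, a region of 621 bp with 60.4, 37.5 and 0.155 FPKM, had the highest log2 ratio to the mixed tissues by day (5.73) but was within 2-fold between day and night. PFAR115 and PFAR12 were the reverse by day, at 0.0496 (0.00995 to 0.152) and 0.0416 (0.0348 to 0.0493) of the mixed-tissue level.

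Spans ran from 231 bp (PFAR147) to 549 kb (PFAR126), with a median of 17.0 kb, 17 regions under 1 kb and 17 over 100 kb. Short regions were among those with the highest FPKM: PFAR108 (271 bp) was at 249, 116 and 16.5 FPKM, PFAR147 at 198, 192 and 17.0, and PFAR230 (681 bp) at 79.9, 109 and 24.97. Among the 10 highest regions by FPKM, 5 by day, 6 by night and 5 in the mixed tissues were under 1 kb, and among the 10 with the most fragments 0 were. Spearman's rho of span and FPKM over the 157 regions was -0.23, -0.36 and -0.25, and of span and fragments 0.52, 0.51 and 0.33. The longest, PFAR126, had 7128 fragments by day, 1290 by night and 39 in the mixed tissues, yet its FPKM was 1.09, 0.297 and 0.00592.

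**Figure D5:**
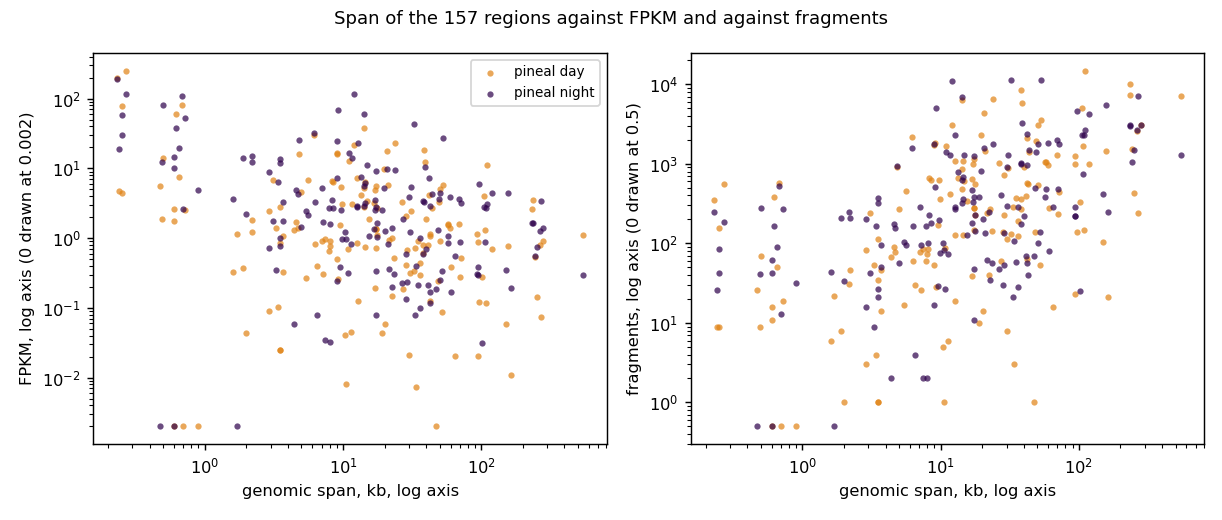
FPKM (left) and number of fragments (right) of the 157 regions against genomic span in kb, all on log axes, for pineal day and pineal night. FPKM is highest on the left, in regions under 1 kb, while fragments increase with span (rho of 0.52 and 0.51).

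By span, all 20 regions under 2 kb could be compared, and 12 were higher and 5 lower by night. From 2 to 10 kb, 33 of 39 were compared, with 17 higher and 7 lower, and over 10 kb 71 of 98, with 25 higher and 6 lower. Those within 2-fold numbered 3 of 20, 9 of 33 and 40 of 71. Without a pseudocount, over regions with at least 20 fragments, they numbered 3 of 18, 5 of 39 and 25 of 98, so the classes differed less. Short regions also had the fewest fragments, with medians of 17.5 by day and 53 by night, against 73 and 104 in the middle class and 439.5 and 394 in the long class.

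The regions fell into 143 loci when those separated by no more than 100 kb were joined. Of these, 130 hold 1 region, 12 hold 2, and 1 holds 3. In 13 of the 14 adjacent pairs within loci the log2 ratios of night over day had the same sign. PFAR179 lies inside PFAR180 and shares its fragments, and without that pair the count was 12 of 13. The locus of 3, at 158 to 328 kb from Clvs1, had PFAR191 at 0.645, 2.68 and 0.565 FPKM, PFAR56 at 14.1, 81.8 and 0.200, and PFAR192 at 0.0442, 2.51 and 0.00876, all higher by night, while Clvs1 was at 4.94 and 5.40.

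The pair of opposite sign lies beside Otx2, a homeobox gene that pinealocytes need, which was at 189 FPKM by day and 337 by night. PFAR144, at 10.4 kb, was at 0.800, 3.38 and 0.00437 FPKM, 4.22-fold higher by night. PFAR145, at 32.9 kb, was at 2.66, 1.63 and 0.104 FPKM, lower by night with a ratio of 0.615. PFAR113 and PFAR114, near Aipl1, a chaperone gene of the photoreceptor phosphodiesterase, were nearly equal in log2 ratio (-0.80 and -0.81) and differed in the mixed tissues, where PFAR113 was at 1.31 FPKM, level with its 1.34 by day, and PFAR114 at 0.832, against 17.8 by day.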

How the data were processed

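Per the file headers, the deposited values are FPKM computed by the authors. Per the submitters' processing notes, TopHat 1.3.1, Cufflinks 1.2.0 and the rn4 build were used. Their options were not stated. The kit named in the labels does not keep strand, so opposite strands cannot be told apart. The members, gene lists and rules were chosen with earlier results of these data known.

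The 157 regions were matched to RefSeq rows by coordinates (starts counted from 1). Named regions are the 15 highest and 10 lowest night to day ratios with at least 1 FPKM, the most abundant 10 per library, the 8 highest ratios to mixed tissues, the 5 longest and shortest, overlapping regions, loci of 3 and listed genes. PFAR113, PFAR114, PFAR123, PFAR144, PFAR145, PFAR193, the 4 regions below the mixed tissues at both times and the named regions under 1 FPKM were chosen after their values were seen. Some nearest rows are not reported here.

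Of values under 1000 fragments in regions without overlap, 104 of 106 (day), 103 of 105 (night) and 115 of 117 (mixed) came out whole within 0.05. The exceptions were PFAR179 and PFAR180, which overlap each other. In overlapping regions 8 of 13, 7 of 11 and 8 of 19 did, so their fragments are approximate. Where a library had 0 fragments, a floor of 3 fragments per library was used. The step fit was tested on simulated data. Intervals are exact Poisson or conditional binomial (scipy 1.17.1, Python 3.11.15). PCR copies are not separate molecules. Motifs were counted in promoters of the genes nearest to regions at least 4-fold higher by night, but only 15 of 22 genes had a RefSeq sequence. The cyclic AMP response element TGACGTCA was in 0 of the 15 and its shorter form TGACG in 4. Of all promoters, 1.91% and 22.0% held them. CACGTG and TAATCC were in 1 each, against 6.65% and 7.11% of all promoters. With so few genes matched, nothing is read from these counts. Alternatives were other pseudocounts, filters, centring and classes.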

Additional observations from a re-analysis of the deposited data

How the results depend on the processing

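No paired analysis was possible because each group has 1 library, and for the same reason leaving out a replicate could not be done. Night against day, a pseudocount of 5 gave 22 regions higher and 5 lower, and one of 0.1 gave 33 lower. A filter at 5 FPKM gave 26 and 11 of the 59 regions it left, beside 54 and 18 of 124. Without a pseudocount (added after seeing the data) 50 of 155 were lower. Day against mixed tissues, a pseudocount of 0.1 gave 64 higher, 4 lower and a median of 3.43, and one of 5 gave 7 and 0.59. No filter gave a median of 0.84 over 157 regions, and a filter at 5 FPKM 2.63 over 34. Without a pseudocount 139 regions were compared instead of 87, with 93 higher, 5 lower and a median of 3.42. Night against mixed tissues, the same settings gave 87 higher and 3.67, 14 and 0.74, 1.17, 3.32 (45 regions), and 113 higher, 1 lower and 4.09 (147 regions). Centring the libraries gave a median of 2.29. Region and nearest row both lower numbered 10 with a pseudocount of 0.1 and 1 without overlapping regions. With near set at 50 kb, the class held 75 regions, 26 higher and 9 lower, and the next class 21, 6 and 2. With near set at 5 kb, 3 near regions were lower. In 3 classes of ranked length, the shortest class held 52, 28 higher and 10 lower, and the longest 53, 11 and 2. The median of night against day was 0.31 with a pseudocount of 5 and 0.33 with no filter. The other alternatives moved counts by at most 1.5 times, and no median changed sign under any alternative run. By the step fitted on the regions, the night library was the shallowest, at 66.5% of the day library.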

Other observations

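The identifiers fall into 2 blocks. Numbers up to 81 are held by 23 regions, with gaps in the numbering, and 101 to 234 by 134 regions without gaps. The 23 had a median of 2.50 FPKM by day and 14.0 by night, with 16 of 23 compared 2-fold higher by night and 2 lower, against medians of 1.09 and 1.62 and 38 and 16 of 101 compared in the other block. PFAR1, PFAR20, PFAR4 and PFAR16 belong to the 23, and all of the regions with microRNA rows inside to the 134.

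The ends of the regions are round numbers. Start and end were both multiples of 10 in 156 of 157 regions and of 100 in 141 (89.8%), against 1.02% and 0.0059% of RefSeq rows. The borders are therefore known to no better than that rounding, and an FPKM depends on it most in the 17 regions under 1 kb. A short gap or overlap depends on it in regions of any span. Examples are the overlap of 76 bp between PFAR19 and Pde10a and the gap of 171 bp between PFAR20 and Dclk3.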
